A study of Homo sapiens with 2 samples.

Results

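Immediate early genes are transcribed within minutes of a growth factor, cytokine or stress signal, and MAPK feedback genes are the later targets of the same kinases that switch them off again. A list of 37 such genes was described in LP-1, a human cell line established from multiple myeloma, a cancer of plasma cells. The members were chosen by name, with earlier results of these data known. Each took the value of the brightest probe set that the array annotation maps to its symbol alone. Of the 37, 36 had such a probe set, among 18377 genes with a value in all, and EGR2 had none. Each of the 36 had exactly 1 probe set.

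The series holds 2 whole-transcript Affymetrix arrays of total RNA. The vector control cells carried pRUF-IRES-GFP, a vector with a green fluorescent protein marker and no insert. The HIF2A cells were stably infected with the same vector carrying full-length human HIF-2α, the product of EPAS1, a subunit of a hypoxia-inducible transcription factor that is degraded in well-oxygenated cells. The sources used here do not say whether either line was a single clone, nor at which oxygen level or density the cultures were harvested. Each group is 1 array, so a difference between them has no replicate check, no p-value or standard error can be given, and 1 culture is compared with 1 culture. In RNA of a whole culture, more cells with a transcript and more of it per cell cannot be told apart.

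In this pathway, RAS, RAF, MEK and ERK pass a surface signal to the nucleus, where kinase-activated factors on serum response elements (bound by SRF at CArG boxes) and cyclic AMP response elements (bound by CREB) start transcription of the first genes. Those genes encode transcription factors of the FOS, JUN, EGR, NR4A and KLF families and RNA-binding proteins that destroy short-lived messages. A second layer shuts the pathway down: dual-specificity phosphatases (DUSP) remove the activating phosphates from MAP kinases, and Sprouty and SPRED proteins act upstream on RAS and RAF. In multiple myeloma the pathway is known as a frequent site of activating mutations and as a branch of the growth signal given by interleukin-6.

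All signals are on a log2 scale, and differences are HIF2A minus vector control throughout. EPAS1, the gene of the insert, was at 3.70 in the vector control and at 9.05 in the HIF2A array. A gene counted as past the filter when its brighter array reached 4.01, which 11469 of 18377 genes and 24 of the 36 measured members did. Over those 11469 genes the median difference was 0.03 and the robust SD, a spread scaled from the median absolute deviation, was 0.34. That spread was between 0.34 and 0.36 in each quartile of mean signal. As a measure of background, the 95th percentile of 359 olfactory receptor genes, whose products serve the nasal epithelium, was 3.59 in the vector control and 3.58 in the HIF2A array. Of 10 plasma cell markers, 10 were past the filter, led by JCHAIN at 12.59 and 12.55. Of these, 2 had signals lower by 2-fold or more with HIF-2α, SLAMF7, a surface receptor gene, with 6.63 and 4.24, and TNFRSF17, the gene of BCMA, with 8.71 and 7.68. The median difference of the 10 was -0.14 and the mean -0.34, and the part of these shifts in the members' differences was not tested. Of the markers of other cells, 0 of 4 for B cells, 2 of 6 for T and NK cells, 2 of 6 for myeloid cells and 3 of 6 for stromal cells were past it. The linear signals summed over the markers came to 42.3 in the vector control and 39.8 in the HIF2A array for B cells, to 80.9 and 85.8 for T and NK cells and to 92.4 and 94.6 for myeloid cells. The stromal sums were 289.3 and 259.9, most of it from VIM, at 7.81 and 7.59 on the log2 scale. Of the fibroblast genes, COL1A1, at 4.72 and 4.59, and COL1A2, at 3.80 and 4.07, were also past the filter. COL3A1, at 3.80 and 3.89, lay above background but not past the filter. DCN, at 2.46 and 2.69, and LUM, at 2.38 and 2.33, lay under background. No gene of these 4 lists that was past the filter differed by 1.5-fold.

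Of the 24 members past the filter, 5 were higher by 1.5-fold or more in the HIF2A array, as were 5.67% of all genes past it. None was lower by that much, against 4.76% of genes. The 5 were DUSP5 and DUSP1, both MAP kinase phosphatase genes, the AP-1 subunit gene FOSB, the nuclear protein gene IER2 and the RNA-binding protein gene ZFP36. The transcription factor genes JUN, JUNB, EGR1, NR4A1 and KLF2 differed by 0.30 log2 units or less, and JUND by -0.33. Several feedback genes that report on ERK activity, DUSP4, SPRY2 and ETV5 among them, lay under the background level on both arrays.

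At 2-fold, 1 member was higher, DUSP5, against 0.706% of genes, and 0 were lower against 0.732%. Of the 24, 15 were higher by any amount and 9 lower, where 52.6% of all genes were higher. Their median difference was 0.12 and their mean 0.22. FOSB and ETV4 passed the filter on the HIF2A array alone, and so could enter only by being higher there. Without these the counts were 4 of 22 higher by 1.5-fold or more and 13 of 22 higher by any amount, and the median of the 22 was 0.11.

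**Figure D1:**
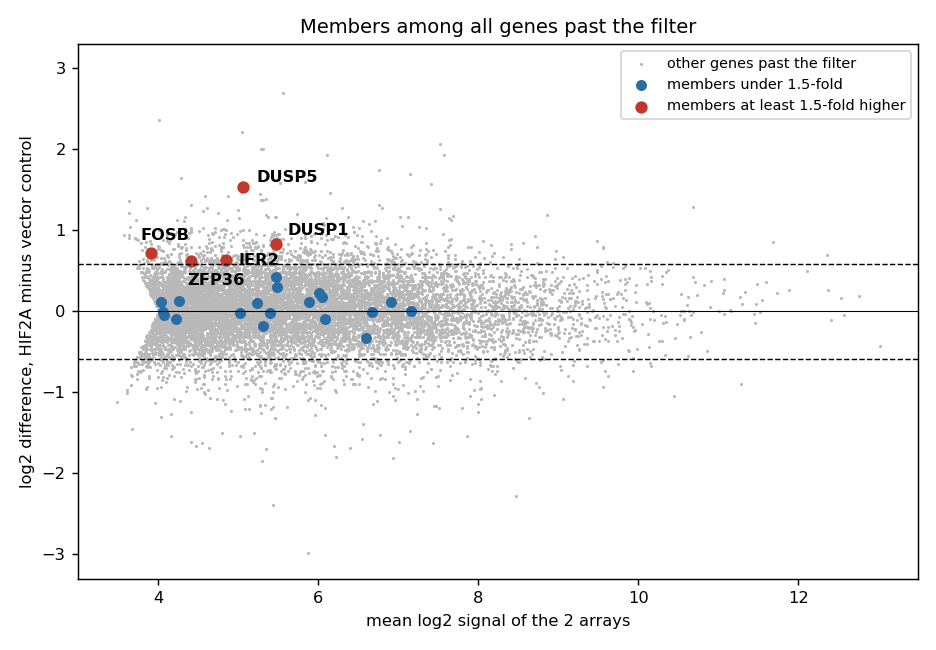
Mean log2 signal of the 2 arrays (horizontal) against the log2 difference, HIF2A minus vector control (vertical), for genes past the filter, EPAS1 left out for scale. Red points are the 5 members at least 1.5-fold higher, from ZFP36 at 0.62 to DUSP5 at 1.53, blue points are the 19 other members, from -0.33 to 0.42, grey points are all other genes, and dashed lines mark 1.5-fold.

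Promoter sequences of RefSeq, build GRCh38.p14, were listed for 28 of the 37 members. DUSP4, DUSP5, EGR3, ETV4, ETV5, FOSL1, KLF10, NR4A2 and ZFP36L2 were not matched. Shown are the 250 bases before the annotated start of the 4 matched genes that were higher in the HIF2A array by 1.5-fold or more, and of EGR1, a textbook target of SRF whose signals differed little. This choice, apart from EGR1, was made after the values were seen. Each sequence reads 5′ to 3′ on the strand of its gene. Capitals mark a CArG box, the letters TGACGT (the core of a cyclic AMP response element) or the letters ACGTG or GCGTG (the core of a HIF binding site), each on either strand. Where such matches overlap, the capitals join. DUSP1 lies at chr5:172771196-172771445 on the minus strand and EGR1 at chr5:138465229-138465478 on the plus strand. FOSB lies at chr19:45467746-45467995, IER2 at chr19:13150161-13150410 and ZFP36 at chr19:39406597-39406846, all on the plus strand.
DUSP1: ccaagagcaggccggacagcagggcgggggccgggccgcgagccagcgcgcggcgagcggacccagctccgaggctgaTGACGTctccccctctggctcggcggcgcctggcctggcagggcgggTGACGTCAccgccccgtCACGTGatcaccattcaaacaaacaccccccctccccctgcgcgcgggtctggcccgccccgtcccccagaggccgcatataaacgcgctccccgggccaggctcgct
FOSB: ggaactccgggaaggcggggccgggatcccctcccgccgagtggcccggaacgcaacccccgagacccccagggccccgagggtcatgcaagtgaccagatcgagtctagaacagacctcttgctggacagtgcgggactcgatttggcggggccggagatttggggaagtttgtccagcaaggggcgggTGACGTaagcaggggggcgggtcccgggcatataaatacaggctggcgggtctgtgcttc
IER2: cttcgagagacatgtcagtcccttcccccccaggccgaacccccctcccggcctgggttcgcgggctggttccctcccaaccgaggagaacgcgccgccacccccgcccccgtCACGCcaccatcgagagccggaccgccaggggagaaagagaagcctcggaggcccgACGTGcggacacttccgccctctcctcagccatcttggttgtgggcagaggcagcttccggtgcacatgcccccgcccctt
ZFP36: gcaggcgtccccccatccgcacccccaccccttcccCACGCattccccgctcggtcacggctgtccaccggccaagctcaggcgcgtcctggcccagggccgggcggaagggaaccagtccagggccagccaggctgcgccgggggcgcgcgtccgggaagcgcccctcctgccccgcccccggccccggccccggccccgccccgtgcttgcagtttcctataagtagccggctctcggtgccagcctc
EGR1: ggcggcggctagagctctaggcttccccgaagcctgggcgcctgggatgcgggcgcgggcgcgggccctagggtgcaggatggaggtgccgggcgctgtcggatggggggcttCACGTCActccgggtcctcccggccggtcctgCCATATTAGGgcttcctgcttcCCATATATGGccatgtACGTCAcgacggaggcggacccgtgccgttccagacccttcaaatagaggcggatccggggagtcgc

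In DUSP1 the full element TGACGTCA began 125 bases before the start, and TGACGT alone began 172 bases before it. FOSB held TGACGT 60 bases before the start. IER2 and ZFP36 held no TGACGT from 250 bases before to 50 after the start, and none of the 4 held a CArG box there. Only exact matches in that window were searched, so elements further away or with other letters would be missed. EGR1 held CArG boxes 83 and 105 bases before its start, and TGACGT read on the other strand 67 and 136 bases before it. The HIF core letters began 108 bases before the start in DUSP1, where they read CACGTG on both strands, 81 and 137 in IER2, 214 in ZFP36 and 137 in EGR1. In FOSB they fell 35 bases after the start, outside the printed stretch.

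Motifs were counted over RefSeq windows of 250 bases before to 50 after each annotated start, for 27305 genes, and a gene counted when any of its windows held the motif. More than 1 window was listed for 5191 of these genes and for 8 of the 28 members, which gave them more room for a match. The genes printed have 1 window each. A CArG box was found in 2 of the 28 members with a window, EGR1 and EGR2, and in 1.60% of all genes. TGACGTCA was found in 4, DUSP1, JUND, MAFF and ZFP36L1, against 2.25% of all genes. TGACGT, which includes every TGACGTCA and was added after the sequences were seen, was found in 11 against 9.64%. The AP-1 letters TGACTCA or TGAGTCA were found in 2, FOSL2 and SPRED2, against 6.05%, and the ETS letters CCGGAA in 7 against 20.1%. The HIF core letters, which are short, were found in 20 of the 28 members and in 52.4% of all genes. All 4 matched genes at least 1.5-fold higher held them, as did 9 of the 15 other matched members past the filter on dim signals. The median GC content of all RefSeq windows, with the 50 bases after the start included, was 58.7%. The 5 stretches printed, which hold only the 250 bases before the start, had between 65.6% and 76.4%. Among genes with 1 window, a comparison added after the counts were seen, TGACGT was found in 7 of 20 members against 8.31% of 22114 genes, TGACGTCA in 2 against 2.01%, the CArG box in 1 against 1.26%, the AP-1 letters in 1 against 5.12%, the ETS letters in 3 against 17.5% and the HIF core letters in 14 against 47.3%. These matches are letters in a window and not measured binding.

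The dual-specificity phosphatases held the widest spread of the roles. DUSP5, a nuclear phosphatase specific for ERK, was at 4.30 in the vector control and at 5.83 in the HIF2A array. The difference of 1.53, or 2.89-fold, ranked 16 from the top among the 11469 genes. Both of its signals lay above the background level. DUSP1, which inactivates p38, JNK and ERK and is itself a classical immediate early gene, had 5.06 and 5.89. Its difference of 0.83, or 1.78-fold, ranked 192 from the top.

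None of the other DUSP genes of the list was higher by 1.5-fold. DUSP2, known from activated lymphocytes, had 5.03 and 5.01. DUSP4, a feedback target of ERK, had 3.52 and 3.44, under the background level on both arrays. DUSP6, the cytoplasmic phosphatase of ERK and a common readout of MEK activity, had 3.62 in the vector control and 3.33 in the HIF2A array, the latter under background. The phosphatases that prefer p38 and JNK were DUSP10, under background at 3.08 and 3.11, and DUSP16, at 6.14 and 6.04. Of the 7 DUSP members, 2 were at least 1.5-fold higher, 2 past the filter differed by 0.10 or less, and 3 were not past the filter. Over all genes past the filter, 5.67% were at least 1.5-fold higher.

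**Figure D2:**
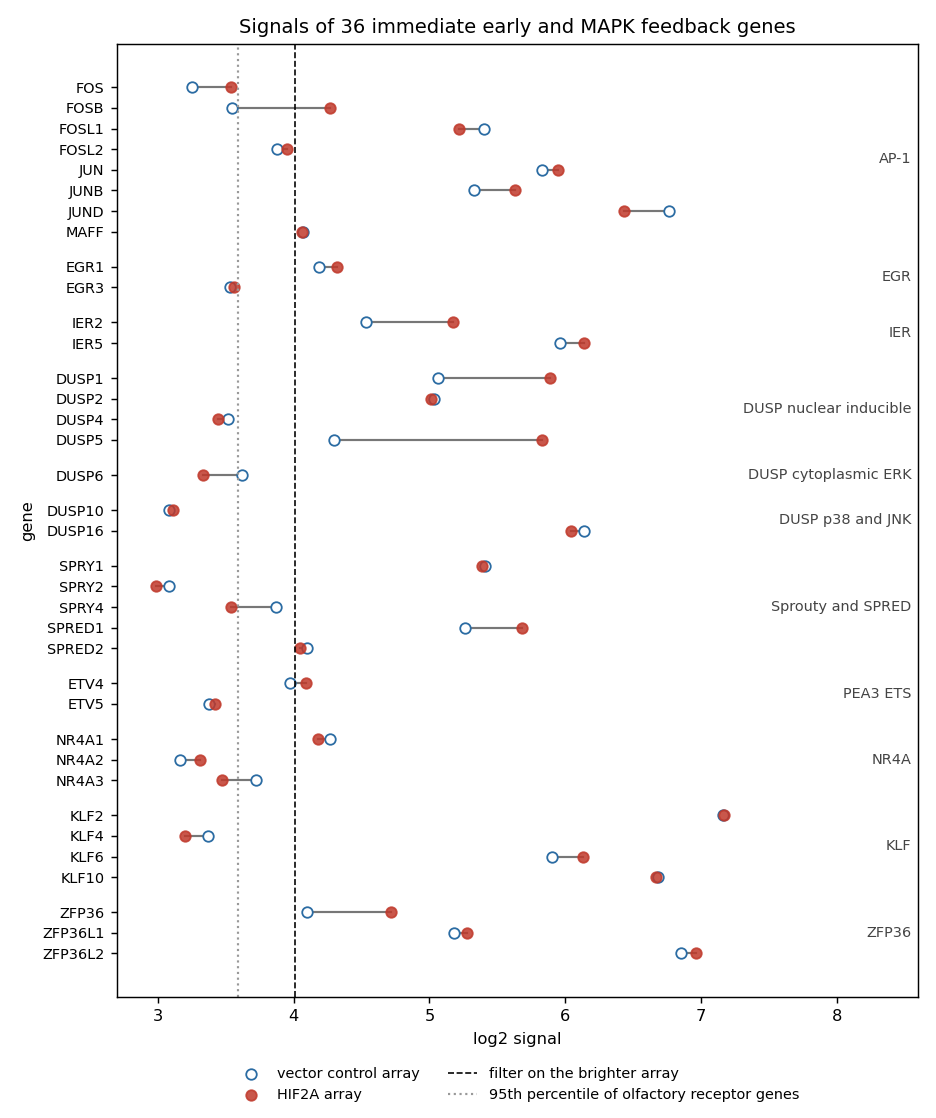
Log2 signals of the 36 measured members, grouped by role, with open circles for the vector control array and filled circles for the HIF2A array. The longest lines belong to DUSP5 (4.30 to 5.83) and DUSP1 (5.06 to 5.89), and the 12 genes whose circles both lie left of the dashed filter line at 4.01 include DUSP6, SPRY2, SPRY4 and ETV5.

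AP-1 is a dimer of a JUN with a FOS family protein, and small MAF proteins such as MAFF join the same class of basic leucine zipper factors. FOSB had 3.55 in the vector control, under background, and 4.27 in the HIF2A array. Its measured difference was 0.72, and against the background level it was at least 1.60-fold higher. FOS itself was under background on both arrays, at 3.25 and 3.54. FOSL2, at 3.88 and 3.95, did not pass the filter. FOSL1, the gene of the FOS family member most tied to sustained ERK signalling, had 5.40 and 5.22.

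The JUN genes, whose proteins can pair with each other as well as with FOS proteins, were past the filter on both arrays. JUN had 5.83 and 5.95, and JUNB had 5.33 and 5.63. JUND, which unlike the others is known for steady expression in resting cells, had 6.76 and 6.43. Its difference of -0.33 was the lowest among members past the filter and is within the robust SD of all genes. MAFF had 4.07 and 4.06. The 6 AP-1 members past the filter were 3 higher and 3 lower, with a median of 0.05.

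The EGR genes encode zinc finger factors that are among the most direct targets of SRF. EGR1 had 4.19 in the vector control and 4.32 in the HIF2A array, and EGR3 had 3.53 and 3.56, under background on both. IER2, an immediate early gene of a small nuclear protein, had 4.53 and 5.17, a difference of 0.64 or 1.56-fold that ranked 474 from the top. Its relative IER5, known to act with heat shock factor and a phosphatase, had 5.96 and 6.14. Both IER genes were higher in the HIF2A array, and IER2 by more than 1.5-fold.

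The ZFP36 family binds AU-rich elements in short-lived messages, many of them of immediate early genes and cytokines, and recruits the deadenylation machinery. ZFP36, the inducible member also known as tristetraprolin, had 4.10 and 4.72, which is 0.62 or 1.54-fold and ranked 521 from the top. ZFP36L1 had 5.18 and 5.28, and ZFP36L2 had 6.85 and 6.96. All 3 were higher in the HIF2A array, and the latter pair by no more than 0.11. ZFP36 was the last member inside 1.5-fold, and the first outside it was SPRED1 with 0.42.

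Sprouty and SPRED proteins are inhibitors of RAS and RAF, induced by the growth factor signals they limit. SPRED1, which brings the RAS inactivator neurofibromin to the membrane, had 5.26 and 5.68, or 1.34-fold. Its relative SPRED2 had 4.10 and 4.05. SPRY1 had 5.41 and 5.39. SPRY2, at 3.08 and 2.99, was under background on both arrays. SPRY4, which was not past the filter, had 3.87 in the vector control and 3.54 in the HIF2A array, the latter under background. Its measured difference was -0.33, or at least 1.22-fold lower against the background level. That difference is within the robust SD of 0.34 of all genes past the filter. None of these 5 genes reached 1.5-fold.

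ETV4 and ETV5 encode ETS factors of the PEA3 group, which are standard transcriptional readouts of ERK output. ETV4 had 3.97 and 4.09, and ETV5 had 3.38 and 3.42, the latter under background on both arrays. Counting DUSP4, DUSP6, SPRY2, SPRY4, ETV4 and ETV5, 6 members used to read MEK and ERK activity, ETV4 alone was past the filter, and on the HIF2A array only. That grouping was made after the values were seen. It leaves out FOSL1, EGR1, SPRY1, SPRED1 and DUSP5, members linked to the same pathway that were past the filter on both arrays.

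The NR4A genes encode orphan nuclear receptors that are induced by antigen receptor and cyclic AMP signals. NR4A1 had 4.27 and 4.18. NR4A2 had 3.16 and 3.31, under background on both arrays. NR4A3 was not past the filter either, with 3.72 in the vector control and 3.47 in the HIF2A array, the latter under background. The KLF genes encode zinc finger factors, of which KLF2 maintains quiescence and homing of lymphocytes. KLF2 had 7.16 and 7.17, and KLF10, a target of TGF-β, had 6.68 and 6.67. KLF6, a widely expressed immediate early member, had 5.90 and 6.13, and KLF4, known as a pluripotency factor, had 3.37 and 3.20, under background on both arrays. No member of either family reached 1.5-fold.

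Across the list, 12 measured members did not pass the filter, 6 of them higher and 6 lower in the HIF2A array, with differences from -0.33 to 0.29. Of these, 8 were under background on both arrays: FOS, EGR3, DUSP4, DUSP10, SPRY2, ETV5, NR4A2 and KLF4. For these no fold is given. The 19 members past the filter and under 1.5-fold were 10 higher and 9 lower.

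Some members lie among chromosomal neighbours that differed between the arrays as a group. The median difference of the 20 nearest genes past the filter was 0.55 around EGR1 and 0.42 around SPRY4, both on chromosome 5, and -0.54 around SPRY1 on chromosome 4. These are the 3 of 36 members whose neighbours had a median at least 0.3 from 0. The share of all genes with such neighbours was not counted, so whether 3 of 36 is many or few is not known. EGR1, dim on both arrays, differed by 0.13, which is -0.42 relative to its neighbours, and SPRY1 by -0.02, which is 0.52 relative to its neighbours. SPRY4, which was not past the filter and was under background on the HIF2A array, differed by -0.33, which is -0.75 relative to its neighbours. Around the 5 genes at least 1.5-fold higher the neighbour medians were 0.19 for DUSP5, 0.20 for DUSP1, 0.10 for FOSB, 0.19 for IER2 and 0.04 for ZFP36. With these medians subtracted, DUSP5 came to 1.34, DUSP1 to 0.63 and FOSB to 0.62, and ZFP36 at 0.58 and IER2 at 0.44 came under 1.5-fold.

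**Figure D3:**
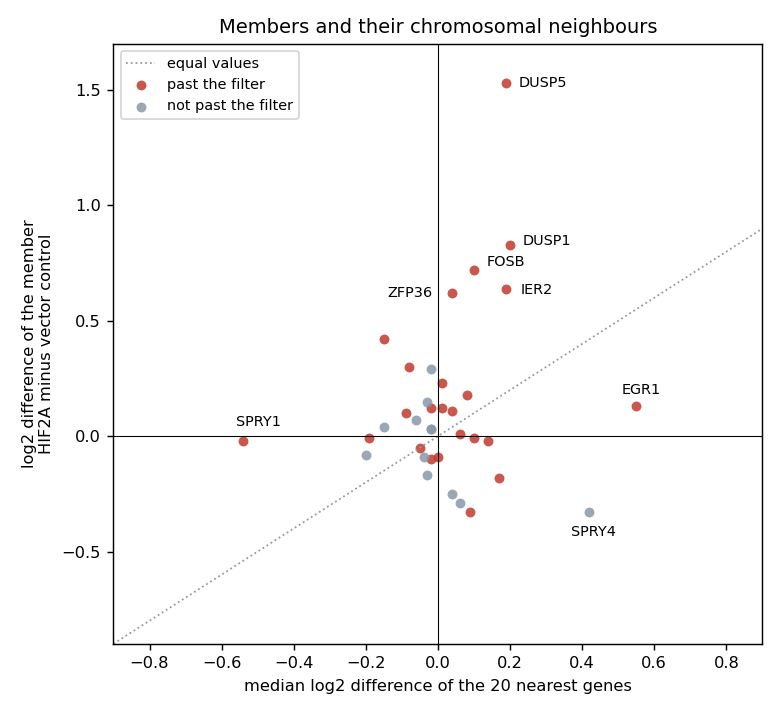
Median log2 difference of the 20 nearest genes past the filter (horizontal) against the member's own log2 difference, HIF2A minus vector control (vertical), for 36 members. EGR1, SPRY4 and SPRY1 lie far to the sides with neighbour medians of 0.55, 0.42 and -0.54, while DUSP5, at 1.53, stands above neighbours with a median of 0.19.

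FOSB, IER2 and ZFP36 all lie on chromosome 19, as do JUNB, JUND and KLF2. Of these 6 members 3 were at least 1.5-fold higher, and 6.26% of the 910 genes of that chromosome past the filter were. The 910 had a median difference of 0.04. That the 3 genes share a chromosome was noticed after their values were seen.

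The other genes of the pathway were described from lists of 133 genes, of which 98 were measured and past the filter. At least 1.5-fold higher were 9 of the 98 and at least 1.5-fold lower 3, against 5.67% and 4.76% of all genes past the filter. At 2-fold 0 were changed in either direction, against 0.706% of genes higher and 0.732% lower. The same shares over all genes stand beside each of the lists below. Their median was 0.12, the same as that of the members.

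Other immediate early genes, not in the list of 37, had 5 of 23 at least 1.5-fold higher and 1 lower, with a median of 0.23. The 5 were CCN2, a matricellular protein gene driven by YAP and SRF, at 4.47 and 5.39, the polyamine synthesis gene AMD1 at 6.38 and 7.12, the small GTPase gene RHOB at 6.17 and 6.89, the pseudokinase gene TRIB1 at 6.91 and 7.61, and the antiproliferative gene BTG1 at 6.72 and 7.34. RHOB, TRIB1 and BTG1 were named after their values were seen. ID1, an inhibitor of helix-loop-helix factors, was the lower gene, at 5.54 and 4.92. IER3 had 4.38 and 4.09, opposite in direction to IER2 and IER5.

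Other MAPK feedback genes had 1 of 16 at least 1.5-fold higher and 1 lower, with a median of -0.07. The higher gene was DUSP3, a small phosphatase of ERK and JNK, at 4.18 and 4.77. The lower was PHLDA1, an ERK target, at 4.90 and 4.28. Of the 16, 7 were higher and 9 lower by any amount, where 52.6% of all genes past the filter were higher.

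Among the kinases themselves, 13 genes of the RAS, RAF, MEK and ERK core were past the filter. Of these, 11 were higher and 2 lower, where 52.6% of all genes were higher, and their median was 0.21. At least 1.5-fold higher were MAP2K1, which encodes MEK1, at 7.28 and 7.97, and RRAS, a RAS relative that activates integrins, at 5.75 and 6.68. LAMTOR3, the scaffold that holds MEK1 and ERK at late endosomes, was 1.71-fold lower, at 6.10 and 5.33. RAS adaptors, exchange factors and GAPs had 0 of 11 past 1.5-fold, with a median of -0.06. The p38 and JNK kinases had 1 of 16 higher, MAPKAPK2 at 5.34 and 5.97, which encodes the kinase that phosphorylates the ZFP36 protein. Factors that drive immediate early genes, such as SRF, CREB1 and the ELK genes, had 0 of 10 past 1.5-fold in either direction, with a median of 0.11. Of the 10, 7 were higher and 3 lower. The 3 lower were SRF, CREB1 and ELK3, the last by 1.49-fold. Other AP-1 partners had 0 of 9, with a median of -0.02.

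**Figure D4:**
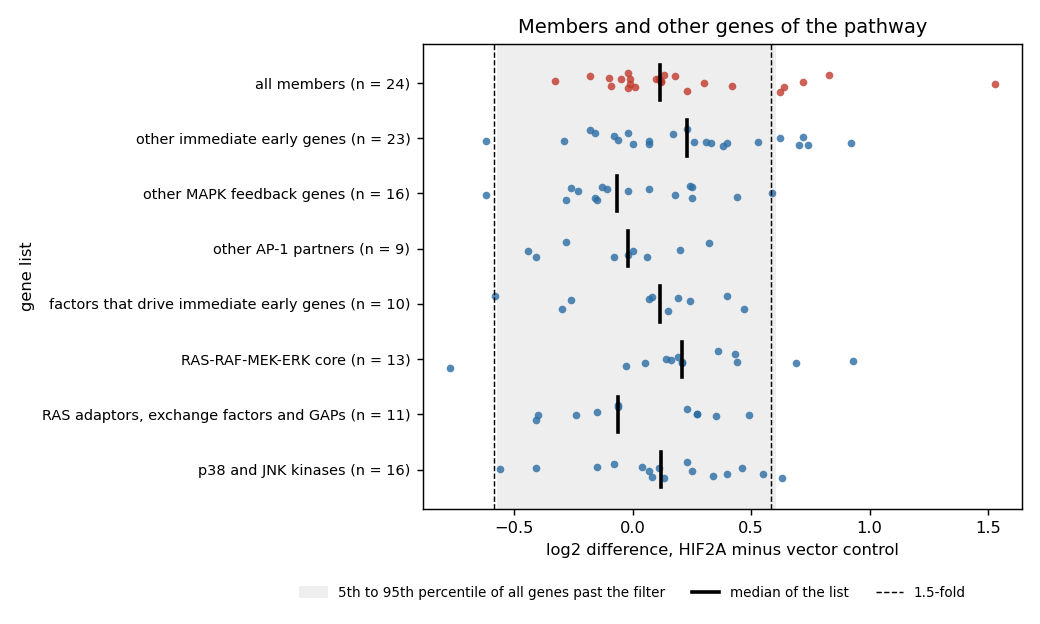
Log2 differences, HIF2A minus vector control, of genes past the filter in each list, 1 point per gene, with a black bar at the list's median. The band spans the 5th to 95th percentile of all genes past the filter, from -0.57 to 0.60, dashed lines mark 1.5-fold, and the members (red) reach furthest right with DUSP5 at 1.53.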

How the data were processed

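The authors deposited a log2 signal for each probe set on each of the 2 arrays, made, per the submitters' processing notes, with Affymetrix Expression Console. Its version, algorithm and background correction are not given in the sources. That the scale is log2 was inferred from its top value of 13.97, above the 11.09 that a natural log of a full 16-bit reading would reach. Scanner files were not used here.

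Of 28869 probe sets, 19310 carry a single gene symbol in the array annotation and were used; 1752 with several symbols and 7807 with none were left out. Symbols were updated by Entrez number through the RefSeq table of GRCh38.p14, which matched 19279. The table also gave the chromosome and the order of genes. A gene with several probe sets took the one with the highest mean of the 2 arrays. The filter is the median over probe sets of that mean.

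All 37 members are named. The members, lists, folds and filter were chosen with earlier results of these data known. From each other list, up to 2 genes with the largest positive and 2 with the largest negative difference could be named. The counting was tested on simulated data. Protein sequences were not used here. Python 3.11.15, numpy 2.4.6, pandas 2.3.3, statsmodels 0.14.6 and matplotlib 3.10.9 were used.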

Additional observations from a re-analysis of the deposited data

How the results depend on the processing

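With 1 array per group no replicate could be left out, and no paired analysis was possible because each group is 1 array. The 11 alternatives were quantile normalization, median centring, loess centring with a span of 0.3, 32 added on the linear scale, no filter, a filter at the 75th percentile, the mean or the dimmest probe set, a floor at background, neighbours subtracted, and a filter on the mean of the 2 arrays, the last chosen after seeing the data. The probe set settings could not move a member, since each has 1 probe set. Adding 32, which shrinks dim signals by construction, left 1 member at least 1.5-fold higher (DUSP5, at 0.78), against 1.21% of genes past the filter. It left 0 at 2-fold, with a median of 0.05. The 75th percentile filter left 2 of 12 members, DUSP1 and DUSP5, against 6.95% of genes past it. Subtracting neighbours left 3 of 24, against 4.87% of genes. Without a filter the median over 36 members was 0.04. In the filter on the mean of the 2 arrays, FOSB dropped out and 4 of 23 were at least 1.5-fold higher, against 5.6% of genes. The filters cannot move a value either, and only decide which genes count. Under the other 6 alternatives, 24 of 30 values of the 5 members were at least 1.5-fold higher, the rest being FOSB, IER2, DUSP1 and ZFP36 with 32 added and IER2 and ZFP36 with neighbours subtracted. Among these 5 members the floor moved FOSB alone, and it also moved dim members outside them. Among members past the filter of each setting, none was at least 1.5-fold lower in any of the 11. SPRY4, not past the filter, came to -0.75 with neighbours subtracted.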
